A study of Mus musculus with 12 samples.

Results

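Macrophages that had been given dead tumour cells were examined for the genes of S phase, the part of the cell cycle in which DNA is copied. The set holds 37 genes of DNA replication, matched by gene symbol among the 55604 genes counted in each library. It has 14 genes of replication licensing and origin firing, 6 of the polymerases and primase, 6 of the sliding clamp, its loader and the joining of Okazaki fragments, 5 of nucleotide synthesis, and 6 of S phase entry, chromatin and repair. The 37 genes were chosen by function, with earlier results of these data known. All 37 were counted in every library and passed the filter on low counts. RNA came from bone marrow-derived macrophages of C57BL/6 mice, grown from marrow with the macrophage growth factor M-CSF (20 ng/ml) and collected on day 7. In 4 libraries the macrophages had been cultured for 20 h at a ratio of 1 to 5 with corpses of B16-F10 cells, a mouse melanoma line, that overexpressed stanniocalcin-1 (STC1OE corpses). In 4 more the corpses were of control B16-F10 cells under the same conditions, and in the last 4 the macrophages had no corpses (macrophages alone). Corpses that had not bound were washed away before RNA was isolated, and corpses that were kept can add their own RNA to a library. The design text gives independent experiments for each condition and does not say whether they used separate mice, so p-values measure the spread between these libraries.

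A replication origin is licensed in G1 when the origin recognition complex, Cdc6 and Cdt1 load the MCM2 to MCM7 helicase onto DNA. Cdc45 and the GINS complex then join the helicase and start the forks, where polymerases alpha, delta and epsilon copy the strands behind the sliding clamp PCNA. Transcription of many of these genes, and of the enzymes that supply deoxynucleotides, is driven by E2F factors at the G1 to S boundary. M-CSF is the mitogen of macrophages, and cultured bone marrow-derived macrophages are known to hold cycling cells while it is present.

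The libraries held 28488441 to 39981074 counts assigned to genes, so that 3 counts correspond to 0.075 to 0.105 CPM, the counts of a gene scaled to the library total. Values below were scaled further by the trimmed mean of M-values (TMM). Stc1, the gene overexpressed in the corpses, had 17 counts over the 4 libraries with STC1OE corpses, 5 over those with control corpses and 5 over those of macrophages alone. The sources used here do not say whether the construct would be counted as mouse Stc1. All 10 macrophage markers looked at were detected in every group. Of 14 melanocyte markers, 3 (Tyr, Gpr143 and Oca2) were at 0 in all 4 libraries of macrophages alone. These 3 were scarce throughout, with 67, 9 and 2 counts over all 12 libraries. The other melanocyte markers had counts in macrophages alone, Mcoln3 most, at 4.47 to 5.77 CPM. Of these, Tyrp1, Dct, Sox10, Slc45a2, Trpm1 and Syt4 reached at most 0.0848 CPM there, about the level of 3 counts or below. No pair of replicates matched within counting error (chi-square over its degrees of freedom, 2.69 to 16.5). In the STC1OE group and in macrophages alone, libraries 1 and 2, and libraries 3 and 4, resembled each other more than pairs across did, and no label gives a reason. The share of unaligned reads split the same way. In the STC1OE group it was 14.62% and 14.4% in libraries 1 and 2, against 17.77% and 17.53% in libraries 3 and 4. In macrophages alone it was 13.41% and 14.01%, against 11.88% and 11.38%. Whether this split bears on the results was not tested.

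Of the 37 genes, 31 had a promoter in the RefSeq table (build GRCm38.p6, 250 bases before to 50 after a start). Both strands were searched for 2 forms of the E2F consensus, TTTCGCGC and TTTGGCGC. At least 1 form was found in the promoters of 11 genes, which is 35.5% of the 31, against 0.929% of the 27025 genes in the table. The windows of 8 of these genes are shown because they place the letters in genes of the helicase (Mcm3, Mcm5, Mcm6, Mcm7), its loader (Cdt1), the ligase Lig1, the chromatin factor Uhrf1 and the catalytic subunit of polymerase alpha (Pola1). Each reads 5′ to 3′ on the strand of its gene, with the E2F letters in capitals.
Mcm3 (chr1:20820263-20820285, minus strand): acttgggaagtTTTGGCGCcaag
Mcm5 (chr8:75109342-75109381, plus strand): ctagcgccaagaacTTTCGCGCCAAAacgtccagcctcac
Mcm6 (chr1:128359731-128359766, minus strand): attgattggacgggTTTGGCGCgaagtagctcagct
Mcm6 (chr1:128359790-128359829, minus strand): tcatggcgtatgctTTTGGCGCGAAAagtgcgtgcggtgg
Mcm7 (chr5:138171849-138171878, minus strand): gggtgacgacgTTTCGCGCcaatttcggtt
Cdt1 (chr8:122568036-122568064, plus strand): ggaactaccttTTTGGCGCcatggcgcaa
Lig1 (chr7:13278841-13278870, plus strand): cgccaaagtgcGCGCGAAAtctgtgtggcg
Uhrf1 (chr17:56304114-56304149, plus strand): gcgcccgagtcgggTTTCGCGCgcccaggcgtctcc
Pola1 (chrX:93632272-93632307, minus strand): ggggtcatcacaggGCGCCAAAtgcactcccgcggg

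In Mcm5 and in the second window of Mcm6 the capitals hold both forms, on opposite strands and overlapping. The E2F letters began before the RefSeq start in Mcm5, and 47 and 110 bases before it in Mcm6, 185 before it in Uhrf1 and 138 before it in Pola1. They lay 38 bases after the start in Mcm3, 16 in Mcm7, 32 in Cdt1 and 26 in Lig1. The others of the 11 were Orc1, Pole2 and Rfc3. The 5-base CCAAT box was found in 16 of the 31 promoters (51.6%), against 41.1% of all genes in the table. These are matches of letters and no binding was measured.

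With control corpses, 23 of the 37 replication genes were higher than in macrophages alone and 1, Pcna, was lower (edgeR quasi-likelihood test, Benjamini-Hochberg adjusted p below 0.05 over 16406 genes). That is 62.2% of the members called higher, against 19.7% of all genes tested, and 2.7% called lower, against 20.5% of all genes. The median log2 fold change of the members was 0.245, against −0.001 over all genes tested. With STC1OE corpses, 11 members (29.7%) were higher than in macrophages alone, against 21.4% of all genes, and 3 (8.11%) were lower, against 22.4%. Their median log2 fold change there was 0.025, against −0.027 over all genes. Set directly against control corpses, STC1OE corpses gave 0 higher members and 23 lower ones (62.2%), against 3.33% and 2.12% of all genes tested. The median log2 fold change was then −0.185, against −0.006 over all genes, and all 37 members had a log2 fold change below 0, as 52.1% of all genes did. Between STC1OE and control corpses, 0 members were higher and 28 lower at an unadjusted p below 0.05, and DESeq2 called 0 higher and 24 lower. Against macrophages alone, 18 members lay below 0 with STC1OE corpses (53.7% of all genes) and 2 with control corpses (50.2% of all genes). The 3 comparisons share libraries pairwise and are not independent of each other. In bulk RNA, fewer cells in S phase and less replication RNA per cell cannot be told apart.

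**Figure D1:**
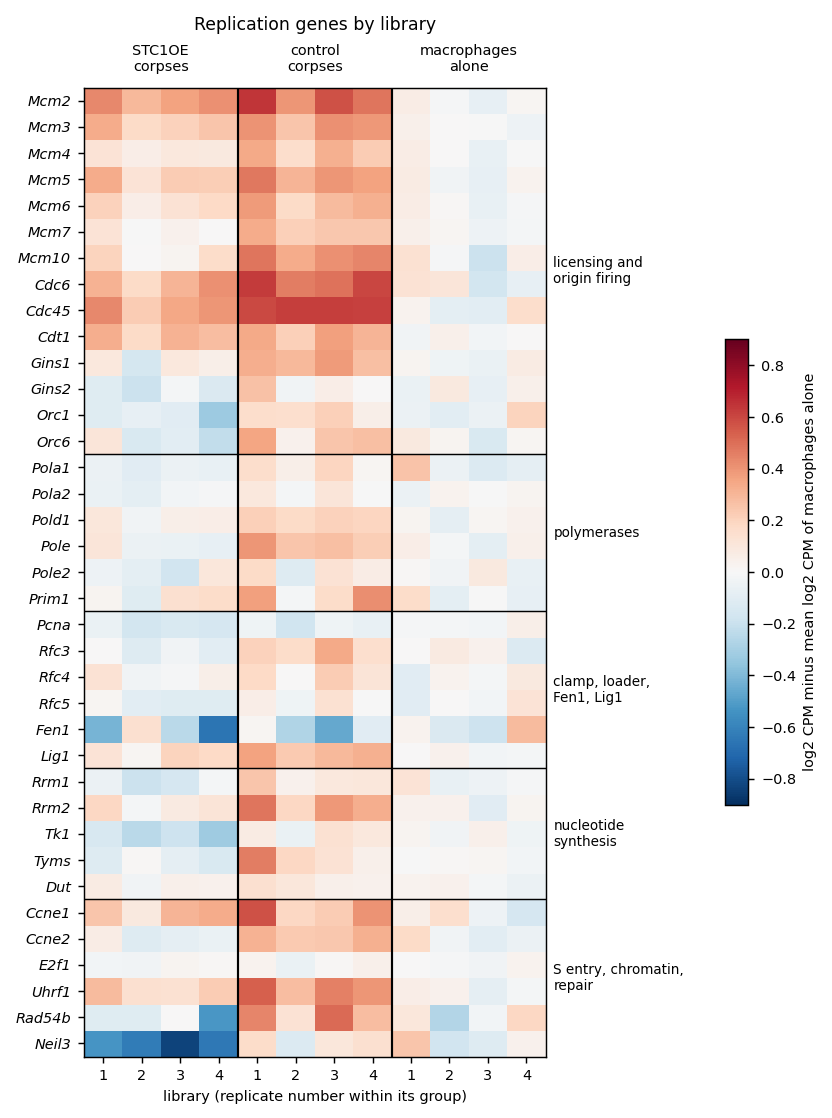
Level of each of the 37 replication genes (rows, grouped by role) in each of the 12 libraries (columns), as log2 CPM minus the mean log2 CPM of macrophages alone, from blue (lower) to red (higher). The median over the 37 genes was −0.03 to 0.096 in the STC1OE corpse libraries, 0.167 to 0.334 in the control corpse libraries and −0.049 to 0.036 in macrophages alone.

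The size of these differences was small. The median fold of the called members was 1.18 with STC1OE corpses against macrophages alone, 1.24 with control corpses against macrophages alone, and 1.2 between the corpse groups. Tested against a change of 1.2-fold rather than 0, 7 members were higher with control corpses than in macrophages alone (4.49% of all genes were) and 0 lower (5.8% of all genes), with 10 and 0 at an unadjusted p below 0.05. With STC1OE corpses against macrophages alone, 1 member was higher (5.5% of all genes) and 1 lower (7.41%). Between the corpse groups edgeR called 0 members (0.0122% of all genes in each direction), with 0 higher and 2 lower at an unadjusted p below 0.05. The 7 were Mcm2, Mcm3, Mcm5, Mcm10, Cdc6, Cdc45 and Uhrf1, and the members that passed with STC1OE corpses were Mcm2 and, on the lower side, Neil3. The ranges of the 4 libraries did not overlap for 20 members higher and 1 lower with control corpses against macrophages alone, where 18.3% and 18.9% of all genes did not overlap. For STC1OE corpses against macrophages alone these counts were 7 and 3, with 19.7% and 20.2% over all genes. Between STC1OE and control corpses they were 0 and 19, with 5.86% and 4.85% over all genes. The count between the corpse groups depended on the libraries used. It was 14 lower without replicate 4 of the STC1OE group. It was 0 with replicates 1 and 2 of each group alone, where 33 genes were called in all and the 37 members all had log2 fold changes below 0. These libraries are part of the full fit, so the shared sign is not a separate result. With replicates 3 and 4 of each group alone, 21 members were lower and 35 had log2 fold changes below 0, and 36 did so without replicate 4 of the STC1OE group or without replicate 1 of the control group. Against macrophages alone, replicates 1 and 2 alone gave 4 higher and 1 lower members with STC1OE corpses and 16 higher with control corpses, where 4650 and 4090 genes were called in all. Replicates 3 and 4 alone gave 12 higher and 5 lower with STC1OE corpses and 23 higher and 1 lower with control corpses, where 6584 and 5865 genes were called in all.

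Levels of different genes can be compared only per length, and in macrophages alone they spanned a wide range. Pcna stood highest, at 220 CPM per kilobase of exon, ahead of Mcm6 at 28.1, Cdt1 at 26.6, Mcm3 at 22.4 and Mcm5 at 20.9. E2f1, the founding E2F activator, stood at 14.7 and the ribonucleotide reductase subunit Rrm2 at 9.63 CPM per kilobase. Among the lowest were Mcm10 at 1.83, Tyms at 1.41, the DNA glycosylase Neil3 at 0.724 and the recombination factor Rad54b at 0.471 CPM per kilobase. Fen1, the flap endonuclease of Okazaki fragments, was lowest at 0.267, with 228 counts over all 12 libraries. Its level is uncertain: 78.8% of its exon bases are also exon of the antisense gene Gm10143, and the sources used here do not say whether counting used strand. In all, 14 members overlap exons of another counted gene and 8 of them over 10% or more of their exon bases (Mcm7, Gins2, Orc1, Rfc4, Rfc5, Fen1, Ccne2 and Rad54b). The other 29 gave 20 higher and 1 lower with control corpses, 11 and 3 with STC1OE corpses, each against macrophages alone, and 0 and 19 between STC1OE and control corpses. The 8 gave 3 and 0, 0 and 0, and 0 and 4 in the same comparisons. Shares of all genes tested were 19.7% and 20.5%, 21.4% and 22.4%, and 3.33% and 2.12% in that order.

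Licensing and origin firing is the largest of the 5 groups by role. Of its 14 members 12 were higher with control corpses than in macrophages alone (19.7% of all genes tested were). With STC1OE corpses 8 were higher than in macrophages alone (21.4% of all genes), while 11 were lower than with control corpses (2.12%).
Mcm2 (chromosome 6), a helicase subunit that also binds histones, had 85.1, 77.1, 80.8 and 83.8 CPM with STC1OE corpses, 98.3, 82.9, 93.8 and 88.2 CPM with control corpses and 65.9, 62.6, 59.8 and 63.9 CPM in macrophages alone.
Every corpse library lay above every library of macrophages alone, and the corpse groups overlapped. The log2 fold change was 0.38 ± 0.047 (SE) with STC1OE corpses (adjusted p = 2.77e-06) and 0.53 ± 0.047 with control corpses (adjusted p = 3.15e-08), each against macrophages alone. Between STC1OE and control corpses it was −0.15 ± 0.046 (adjusted p = 0.0627), which missed the threshold.
Mcm5 (chromosome 8), a subunit at the gate of the helicase ring, had 105, 91.2, 97.9 and 97.6 CPM with STC1OE corpses, 116, 103, 110.3 and 108 CPM with control corpses and 88, 81.6, 79.5 and 85.7 CPM in macrophages alone.
Its order of groups was that of Mcm2, and its difference between STC1OE and control corpses was called (log2 fold change −0.16 ± 0.042, adjusted p = 0.0307) although the ranges overlapped.
Mcm7 (chromosome 5) had 56.2, 51.5, 53.2 and 52 CPM with STC1OE corpses, 65.2, 59.9, 61.1 and 61.2 CPM with control corpses and 53.5, 52.3, 50 and 51.2 CPM in macrophages alone.
Here the STC1OE libraries overlapped those of macrophages alone and lay below all 4 control corpse libraries. The log2 fold changes of Mcm7 were 0.042 ± 0.036 with STC1OE corpses (adjusted p = 0.374) and 0.26 ± 0.036 with control corpses (adjusted p = 4.47e-07) against macrophages alone, and −0.22 ± 0.035 between the corpse groups (adjusted p = 0.000286). Mcm3, Mcm4 and Mcm6 also had the highest mean with control corpses and the lowest in macrophages alone, with 144.8 ± 6.47, 160.3 ± 9.72 and 131 ± 4.95 CPM (SD, n = 4 each) for Mcm6 in that order of STC1OE corpses, control corpses and macrophages alone. The calls of Mcm3, Mcm5 and Mcm6 between the corpse groups were each lost without any 1 of 6 libraries (replicates 2, 3 and 4 of the STC1OE group and 1, 3 and 4 of the control group), with adjusted p up to 0.126, 0.106 and 0.11. That of Mcm4 with STC1OE corpses against macrophages alone was lost without any 1 of 5 libraries (replicates 1 and 3 of the STC1OE group and 2, 3 and 4 of macrophages alone), with adjusted p up to 0.172.

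Cdc45 (chromosome 16), the helicase activator, had the largest log2 fold change of the 37 members with control corpses.
Its levels were 11.6, 10.1, 10.9 and 11.3 CPM with STC1OE corpses, 13, 13.3, 13.2 and 13.2 CPM with control corpses and 8.77, 8.06, 8.04 and 9.58 CPM in macrophages alone. The control corpse libraries were the highest and the closest to each other, the STC1OE libraries came next, and no ranges overlapped. Its log2 fold changes were 0.35 ± 0.067 with STC1OE corpses (adjusted p = 7.13e-05) and 0.61 ± 0.066 with control corpses (adjusted p = 4.97e-09), each against macrophages alone, and −0.26 ± 0.064 between STC1OE and control corpses (adjusted p = 0.0134).
Cdc6 (chromosome 11), which loads the helicase together with Cdt1, had 15.5, 14.1, 15.4 and 16.6 CPM with STC1OE corpses, 19.3, 17.2, 17.5 and 18.9 CPM with control corpses and 13.6, 13.4, 11.1 and 11.8 CPM in macrophages alone.
None of its ranges overlapped, with log2 fold changes of 0.31 ± 0.066 and 0.55 ± 0.064 against macrophages alone (adjusted p = 0.000295 and 2.83e-08), and −0.24 ± 0.062 between STC1OE and control corpses (adjusted p = 0.0183). That last call was lost without replicate 2 or 3 of the STC1OE group or replicate 1 or 4 of the control group (adjusted p up to 0.0753).
Mcm10 (chromosome 2), which helps the helicase to fire, had 16.1, 14.1, 14.3 and 15.8 CPM with STC1OE corpses, 19.7, 17.7, 18.7 and 19.1 CPM with control corpses and 15.5, 14, 12.3 and 14.7 CPM in macrophages alone.
All control corpse libraries were the highest, while the STC1OE libraries overlapped those of macrophages alone (log2 fold change 0.10 ± 0.063, adjusted p = 0.221). Between STC1OE and control corpses its log2 fold change was −0.32 ± 0.061 (adjusted p = 0.00155).

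Cdt1 (chromosome 8), the partner of Cdc6 in loading, had 105, 94, 104 and 101 CPM with STC1OE corpses, 106, 96.9, 108 and 104 CPM with control corpses and 81.9, 86.3, 82.2 and 83.9 CPM in macrophages alone.
Both corpse groups lay above all libraries of macrophages alone, by 0.27 ± 0.035 with STC1OE corpses (adjusted p = 1.36e-07) and 0.31 ± 0.035 with control corpses (adjusted p = 1.4e-08) on the log2 scale. The corpse groups overlapped, with a log2 fold change of −0.036 ± 0.034 (adjusted p = 0.615). Gins1 and Orc6 were higher with control corpses than in macrophages alone (log2 fold changes 0.32 ± 0.077 and 0.24 ± 0.074, adjusted p = 0.00105 and 0.011). Both were lower with STC1OE than with control corpses (−0.30 ± 0.077 and −0.32 ± 0.075, adjusted p = 0.0187 and 0.00916). Orc1, the largest subunit of the origin recognition complex, was called only between STC1OE and control corpses, at 6.03 ± 0.476 and 7.39 ± 0.345 CPM, against 6.71 ± 0.658 CPM in macrophages alone. Orc1 lost that call without any 1 of 5 libraries (adjusted p up to 0.169): replicates 3 and 4 of the STC1OE group and 1, 2 and 3 of the control group. Gins1 lost it without replicate 2 or 4 of the STC1OE group or replicate 3 of the control group, and Orc6 without replicate 4 of the STC1OE group (adjusted p up to 0.0699 and 0.0615). Against macrophages alone, Orc6 lost its call with control corpses without replicate 1 of the control group or replicate 3 of macrophages alone (adjusted p up to 0.0599). Gins2 was called in no comparison, and 67.3% of its exon bases overlap those of Gse1 on the other strand.

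Among the polymerases, 3 of 6 members were higher with control corpses than in macrophages alone (19.7% of all genes tested were). Between the corpse groups, 2 were lower with STC1OE than with control corpses (2.12% of all genes). With STC1OE corpses against macrophages alone edgeR called 0 of them, with 0 at an unadjusted p below 0.05 and 0 by DESeq2.
Pole (chromosome 5), the catalytic subunit of the leading strand polymerase epsilon, had 22.8, 20.4, 20.3 and 20.0 CPM with STC1OE corpses, 27.8, 25.1, 25.5 and 24.6 CPM with control corpses and 22, 20.9, 19.9 and 21.7 CPM in macrophages alone.
The STC1OE libraries overlapped those of macrophages alone and all lay below the control corpse libraries, at a log2 fold change of −0.30 ± 0.05 between STC1OE and control corpses (adjusted p = 0.000286). Against macrophages alone the log2 fold change of Pole was −0.016 ± 0.051 with STC1OE corpses (adjusted p = 0.828) and 0.29 ± 0.05 with control corpses (adjusted p = 1.71e-05).
Pold1 (chromosome 7), the catalytic subunit of the lagging strand polymerase delta, had 40.1, 36.5, 38.8 and 39 CPM with STC1OE corpses, 43.2, 42, 43.1 and 42.6 CPM with control corpses and 38, 35.3, 37.7 and 38.4 CPM in macrophages alone.
Its control corpse libraries lay above the other 8, which overlapped. The log2 fold changes of Pold1 were 0.047 ± 0.038 with STC1OE corpses (adjusted p = 0.331) and 0.19 ± 0.037 with control corpses (adjusted p = 7.03e-05) against macrophages alone, and −0.15 ± 0.037 between STC1OE and control corpses (adjusted p = 0.015). The last was lost without replicate 2 or 4 of the STC1OE group (adjusted p up to 0.0597). Prim1, the primase that starts each fragment with RNA, was higher with control corpses than in macrophages alone (0.24 ± 0.09, adjusted p = 0.0291). The call of Prim1 was lost without any 1 of 5 libraries, replicates 1 and 4 of the control group and 2, 3 and 4 of macrophages alone (adjusted p up to 0.13). Pola1, Pola2 and Pole2 were called in no comparison. Pola1 had 26.4, 25.5, 26.3 and 26.1 CPM with STC1OE corpses, 30.5, 28.4, 31.2 and 27.6 CPM with control corpses and 32.7, 26.3, 25.1 and 25.8 CPM in macrophages alone, so that its replicate 1 of macrophages alone stood above every other library.

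Pcna (chromosome 2), the sliding clamp and the most abundant member, went the other way from the helicase genes.
It had 507, 471, 480.0 and 476 CPM with STC1OE corpses, 514, 466, 515 and 505 CPM with control corpses and 524, 523, 519.8 and 549 CPM in macrophages alone. All 8 corpse libraries lay below all 4 libraries of macrophages alone, while the corpse groups overlapped. The log2 fold change was −0.13 ± 0.03 with STC1OE corpses (adjusted p = 0.000717) and −0.08 ± 0.03 with control corpses (adjusted p = 0.0321), each against macrophages alone, and −0.049 ± 0.03 between STC1OE and control corpses (adjusted p = 0.387). With control corpses the Pcna call was lost without replicate 2 of the control group or replicate 1 or 4 of macrophages alone (adjusted p up to 0.321), and DESeq2 did not make it.
Lig1 (chromosome 7), which seals the nicks between Okazaki fragments, had 38, 35.3, 40.3 and 39.5 CPM with STC1OE corpses, 45, 41.1, 42.8 and 43.6 CPM with control corpses and 35, 35.9, 34.4 and 34.6 CPM in macrophages alone.
Its control corpse libraries were the highest of the 12, and replicate 2 of the STC1OE group lay within the range of macrophages alone. Lig1 gave log2 fold changes of 0.13 ± 0.041 and 0.30 ± 0.04 against macrophages alone (adjusted p = 0.00934 with STC1OE and 2.24e-07 with control corpses) and −0.17 ± 0.04 between STC1OE and control corpses (adjusted p = 0.00778). Of the clamp loader genes, Rfc3 was higher with control corpses than in macrophages alone (0.22 ± 0.061, adjusted p = 0.00434) and lower with STC1OE than with control corpses (−0.28 ± 0.062, adjusted p = 0.00546). Rfc4, Rfc5 and Fen1 were called in no comparison.

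**Figure D2:**
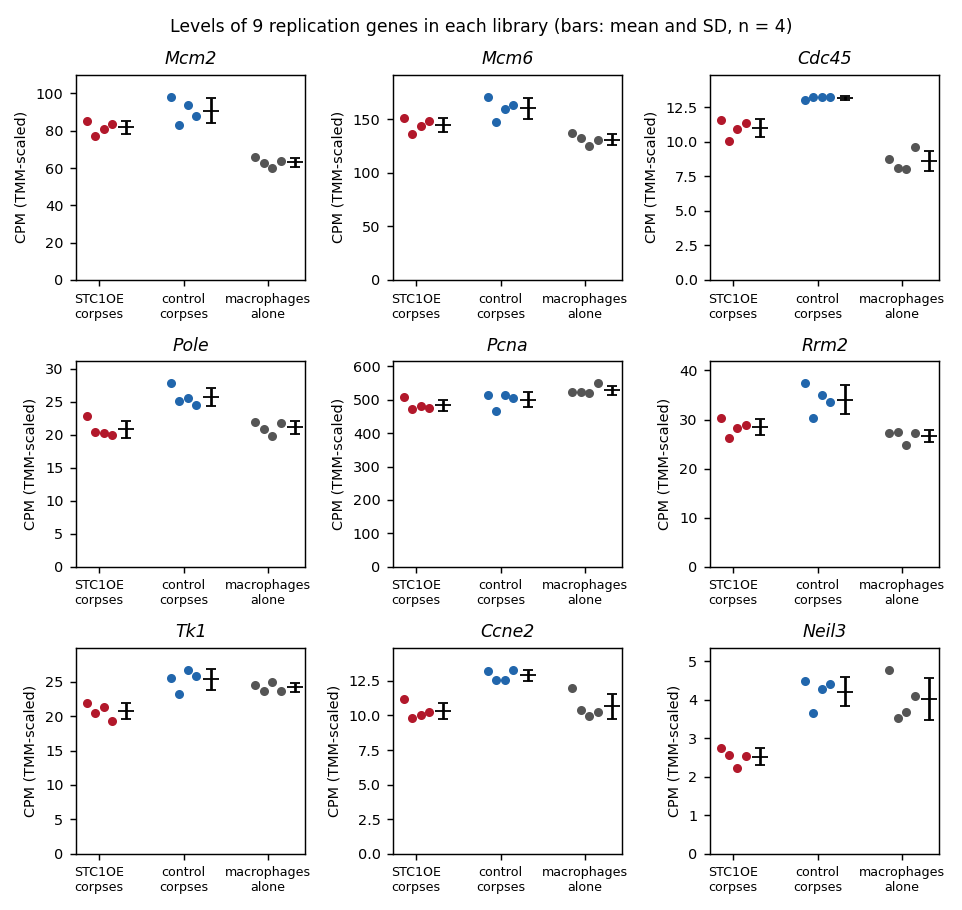
CPM (TMM-scaled, linear axes from 0) of 9 replication genes in each library, with STC1OE corpses in red, control corpses in blue and macrophages alone in grey; the bars beside the points are mean and SD (n = 4). Cdc45 separates into 3 levels, Pole and Ccne2 stand highest with control corpses, Tk1 and Neil3 stand lowest with STC1OE corpses, and Pcna is highest in macrophages alone.

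Of the 5 nucleotide synthesis genes 2 were higher with control corpses than in macrophages alone (19.7% of all genes tested were). With STC1OE corpses 1 was lower than in macrophages alone (22.4% of all genes), while 4 were lower than with control corpses (2.12%).
Rrm2 (chromosome 12), the S phase subunit of ribonucleotide reductase, had 30.3, 26.3, 28.3 and 29 CPM with STC1OE corpses, 37.4, 30.3, 34.9 and 33.5 CPM with control corpses and 27.4, 27.4, 24.9 and 27.2 CPM in macrophages alone.
Its control corpse libraries all lay above the other 8, with replicate 2 of them just above replicate 1 of the STC1OE group. The log2 fold change of Rrm2 was 0.10 ± 0.056 with STC1OE corpses (adjusted p = 0.184) and 0.35 ± 0.055 with control corpses (adjusted p = 1.06e-05), each against macrophages alone, and −0.26 ± 0.054 between STC1OE and control corpses (adjusted p = 0.00546). Rrm1, the large subunit, was called only between STC1OE and control corpses, at 56.8 ± 3.26 and 66.5 ± 4.24 CPM, against 61 ± 3.67 CPM in macrophages alone (−0.23 ± 0.05, adjusted p = 0.013).
Tk1 (chromosome 11), the thymidine kinase of the salvage pathway, had 21.9, 20.5, 21.3 and 19.4 CPM with STC1OE corpses, 25.6, 23.3, 26.7 and 25.9 CPM with control corpses and 24.6, 23.8, 25 and 23.6 CPM in macrophages alone.
Every STC1OE library lay below all 8 others, and the control corpse libraries overlapped those of macrophages alone. For Tk1 the log2 fold change was −0.22 ± 0.048 with STC1OE corpses (adjusted p = 0.000316) and 0.066 ± 0.047 with control corpses (adjusted p = 0.286) against macrophages alone, and −0.29 ± 0.048 between STC1OE and control corpses (adjusted p = 0.000325). Tyms, which makes thymidylate, averaged 8.12 ± 0.377 CPM with STC1OE corpses, 9.97 ± 1.3 CPM with control corpses and 8.59 ± 0.11 CPM in macrophages alone (SD, n = 4 each). Tyms was higher with control corpses than in macrophages alone (0.22 ± 0.077, adjusted p = 0.0233) and lower with STC1OE than with control corpses (−0.30 ± 0.078, adjusted p = 0.0186). Replicate 1 of the control group stood highest for Tyms, and without it neither call held (adjusted p up to 0.199 and 0.122). The first was also lost without replicate 4 of macrophages alone and the second without replicate 4 of the STC1OE group. Dut, which removes dUTP, was called in no comparison, at 10.6 ± 0.321, 11 ± 0.383 and 10.4 ± 0.307 CPM with STC1OE corpses, control corpses and macrophages alone.

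In the last group 4 of 6 genes were higher with control corpses than in macrophages alone (19.7% of all genes tested were). With STC1OE corpses 2 were higher and 1 lower than in macrophages alone (21.4% and 22.4% of all genes). Another count, of genes lower with STC1OE than with control corpses, was 4 (2.12%).
E2f1 (chromosome 2) had 45.7, 45.5, 47.2 and 46.8 CPM with STC1OE corpses, 47.6, 44.6, 46.7 and 47.9 CPM with control corpses and 46.6, 46.1, 45.4 and 47.5 CPM in macrophages alone.
All 3 groups overlapped, with log2 fold changes of −0.004 ± 0.034 and 0.009 ± 0.034 against macrophages alone and −0.014 ± 0.034 between STC1OE and control corpses (adjusted p = 0.938, 0.859 and 0.877). The E-type cyclins activate Cdk2 at S phase entry and gave unlike values.
Ccne2 (chromosome 4) had 11.2, 9.82, 10.1 and 10.2 CPM with STC1OE corpses, 13.2, 12.6, 12.6 and 13.3 CPM with control corpses and 12, 10.4, 9.97 and 10.3 CPM in macrophages alone.
Its control corpse libraries were the highest, at a log2 fold change of 0.28 ± 0.064 against macrophages alone (adjusted p = 0.000724). The STC1OE libraries gave −0.044 ± 0.066 against macrophages alone (adjusted p = 0.634) and −0.32 ± 0.065 against control corpses (adjusted p = 0.00251). Ccne1 was higher than in macrophages alone with STC1OE corpses (0.25 ± 0.084, adjusted p = 0.0173) and with control corpses (0.36 ± 0.083, adjusted p = 0.000748), with −0.11 ± 0.081 between STC1OE and control corpses (adjusted p = 0.49). With STC1OE corpses Ccne1 lost its call without replicate 3 or 4 of macrophages alone (adjusted p up to 0.0791).

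Uhrf1 (chromosome 17), which brings DNA methylation to newly copied DNA, had 78.8, 71.3, 71.1 and 75.5 CPM with STC1OE corpses, 93.7, 78.4, 88.7 and 85.2 CPM with control corpses and 67.2, 66.5, 61 and 63.9 CPM in macrophages alone.
It was higher than in macrophages alone by 0.20 ± 0.05 with STC1OE corpses (adjusted p = 0.00359) and 0.42 ± 0.049 with control corpses (adjusted p = 2.12e-06). The difference between STC1OE and control corpses was −0.22 ± 0.049 (adjusted p = 0.0134) on the log2 scale.
Neil3 (chromosome 8), a glycosylase that removes oxidised bases and unhooks crosslinks at forks, had the largest difference between the corpse groups.
Its levels were 2.75, 2.56, 2.22 and 2.54 CPM with STC1OE corpses, 4.48, 3.67, 4.29 and 4.41 CPM with control corpses and 4.77, 3.54, 3.68 and 4.1 CPM in macrophages alone. All 4 STC1OE libraries lay below the other 8, which overlapped. The log2 fold change of Neil3 was −0.67 ± 0.12 with STC1OE corpses (adjusted p = 1.42e-05) and 0.07 ± 0.11 with control corpses (adjusted p = 0.653), each against macrophages alone, and −0.74 ± 0.11 between STC1OE and control corpses (adjusted p = 0.000114). Tested against a 1.2-fold change, the difference between the corpse groups gave an edgeR adjusted p of 0.0576.
Rad54b (chromosome 4), of homologous recombination, averaged 2.39 ± 0.369 CPM with STC1OE corpses, 3.45 ± 0.404 CPM with control corpses and 2.72 ± 0.361 CPM in macrophages alone (SD, n = 4 each).
It was lower with STC1OE than with control corpses (−0.53 ± 0.13, adjusted p = 0.0121), which was lost without replicate 4 of the STC1OE group or replicate 3 of the control group (adjusted p up to 0.0805). Rad54b was also higher with control corpses than in macrophages alone (0.34 ± 0.13, adjusted p = 0.0318), a call lost without replicate 1 or 3 of the control group or replicate 2 or 3 of macrophages alone (adjusted p up to 0.133). Of its exon bases 35.8% are also exon of Fsbp on the same strand.

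**Figure D3:**
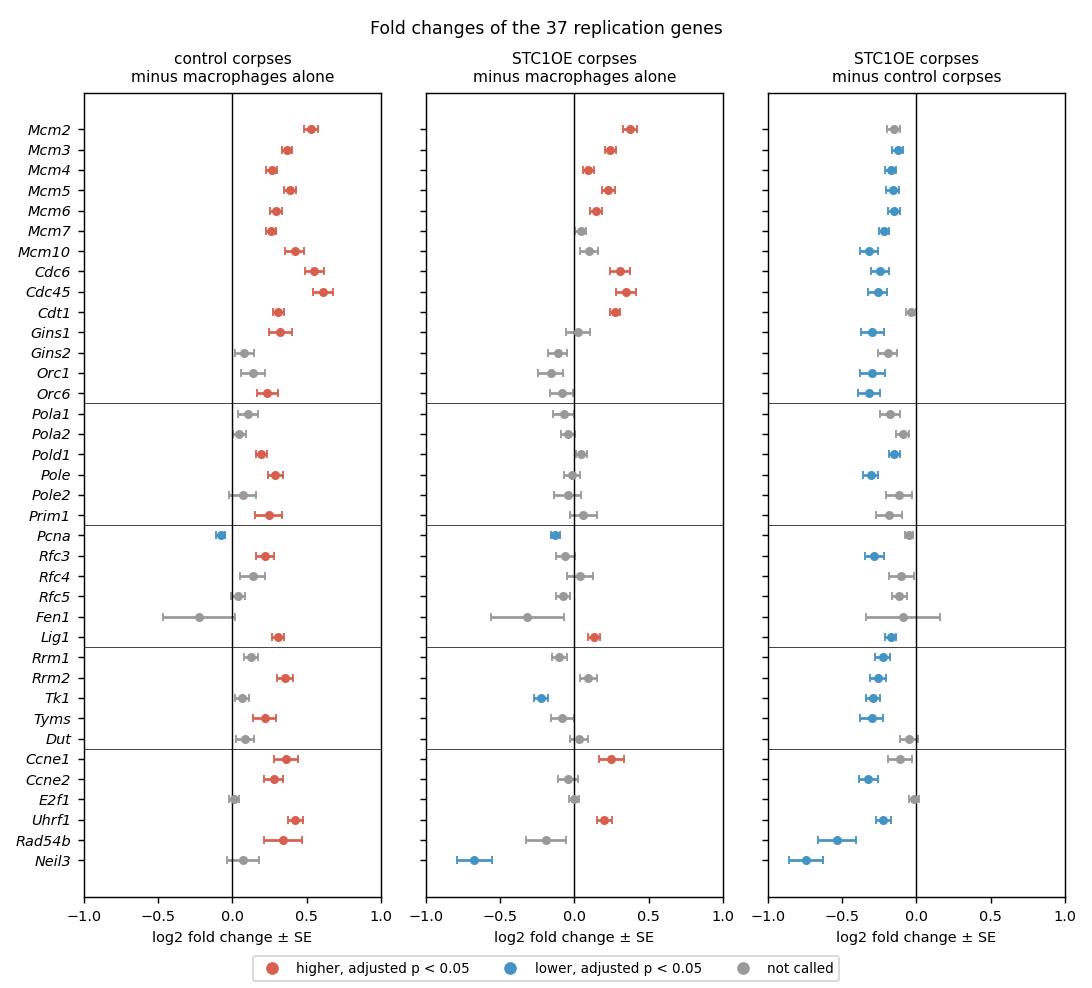
Log2 fold change with its SE (horizontal axis) of each of the 37 replication genes (rows) in the 3 comparisons, coloured by the edgeR call. In the left panel 23 genes are called higher and 1 lower, in the middle panel 11 and 3, and in the right panel 0 and 23.

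Members with and without the E2F letters in their promoter were then set side by side, a split made after values had been seen and given as counts only. Of the 11 with the letters, 6 were higher with STC1OE corpses and 8 with control corpses than in macrophages alone, while 8 were lower with STC1OE than with control corpses. Of the 20 members whose promoter lacked the letters, 4 were higher and 3 lower with STC1OE corpses, 10 higher and 1 lower with control corpses, and 10 lower with STC1OE than with control corpses. Pcna, Tk1 and Neil3, the members called lower than in macrophages alone, belonged to these 20. The median log2 fold changes of members with and without the letters were −0.173 and −0.169 between STC1OE and control corpses, and 0.292 and 0.165 with control corpses against macrophages alone. The 6 members without a promoter had medians of −0.3 and 0.284 there. Of these 6, 1 was higher with STC1OE and 5 with control corpses, and 5 were lower between the corpse groups. Shares of all genes tested were 21.4% higher and 22.4% lower with STC1OE corpses, 19.7% and 20.5% with control corpses, and 2.12% lower between the corpse groups.

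Other replication genes were counted from lists that were also chosen with earlier results known. Over all genes tested, 21.4% were higher and 22.4% lower with STC1OE corpses, and 19.7% and 20.5% with control corpses, each against macrophages alone. Between STC1OE and control corpses 3.33% were higher and 2.12% lower, and the counts below are to be read beside these shares. Of 37 further genes of the replication machinery, 10 were higher and 6 lower with STC1OE corpses than in macrophages alone, 15 and 1 with control corpses, and 5 were lower with STC1OE than with control corpses. Timeless, of the fork protection complex, averaged 22 CPM with STC1OE corpses, 25.1 CPM with control corpses and 17.1 CPM in macrophages alone. Rpa1, a subunit of the single-strand binding protein, averaged 62.9, 63.9 and 52 CPM in the same groups. Chromatin assembly and maintenance methylation gave 2 higher and 2 lower of 8 with STC1OE corpses, 4 higher with control corpses, each against macrophages alone, and 1 lower, Hells, between STC1OE and control corpses. For 14 genes of nucleotide supply the counts were 6 higher and 2 lower with STC1OE corpses and 9 and 1 with control corpses against macrophages alone, and 1 lower between STC1OE and control corpses. Cad, the first enzymes of pyrimidine synthesis, stood at 93.9, 94.9 and 69.9 CPM for STC1OE corpses, control corpses and macrophages alone. Replication-coupled repair gave 4 higher and 2 lower of 23 with STC1OE corpses, 16 and 1 with control corpses, and 8 lower between STC1OE and control corpses, among them Brca2 at a log2 fold change of −0.33 (adjusted p = 0.00169). In the list of G1 to S control, 20 of 21 genes were tested and gave 6 higher and 3 lower with STC1OE corpses, 10 and 4 with control corpses, and 5 lower between STC1OE and control corpses. In these 5 lists edgeR called 0 genes higher with STC1OE than with control corpses, and at an unadjusted p below 0.05 there was 1, in the G1 to S list. Mitosis and cytokinesis, which come later in the cycle than S phase, gave other counts: 15 of 25 were lower with STC1OE corpses than in macrophages alone, 3 were higher and 5 lower with control corpses, and 9 were lower with STC1OE than with control corpses. The medians of the mitosis list were −0.24 with STC1OE and 0.052 with control corpses against macrophages alone, and −0.27 between STC1OE and control corpses, where the 37 replication genes had 0.025, 0.245 and −0.185. Log2 fold changes below 0 between STC1OE and control corpses were not particular to the 37 members. They were found in 25 of 25 mitosis genes, 35 of 37 other replication genes and 8 of 8 chromatin genes. Nucleotide supply had 12 of 14 below 0, repair 20 of 23 and G1 to S control 14 of 20. Of 9 tested CDK inhibitors and D cyclins, 2 were higher and 5 lower with STC1OE corpses, 2 and 3 with control corpses, and 2 and 2 between STC1OE and control corpses. Cdkn1c, a CDK inhibitor, was higher by 1.88 with STC1OE corpses and 1.33 with control corpses than in macrophages alone, and by 0.54 with STC1OE than with control corpses (log2 scale, adjusted p = 4.62e-18, 3.7e-14 and 1.9e-05). Cdkn1b, another CDK inhibitor, was lower than in macrophages alone in both corpse groups, at log2 fold changes of −0.49 with STC1OE and −0.54 with control corpses (adjusted p = 5.22e-08 and 7.97e-09).

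**Figure D4:**
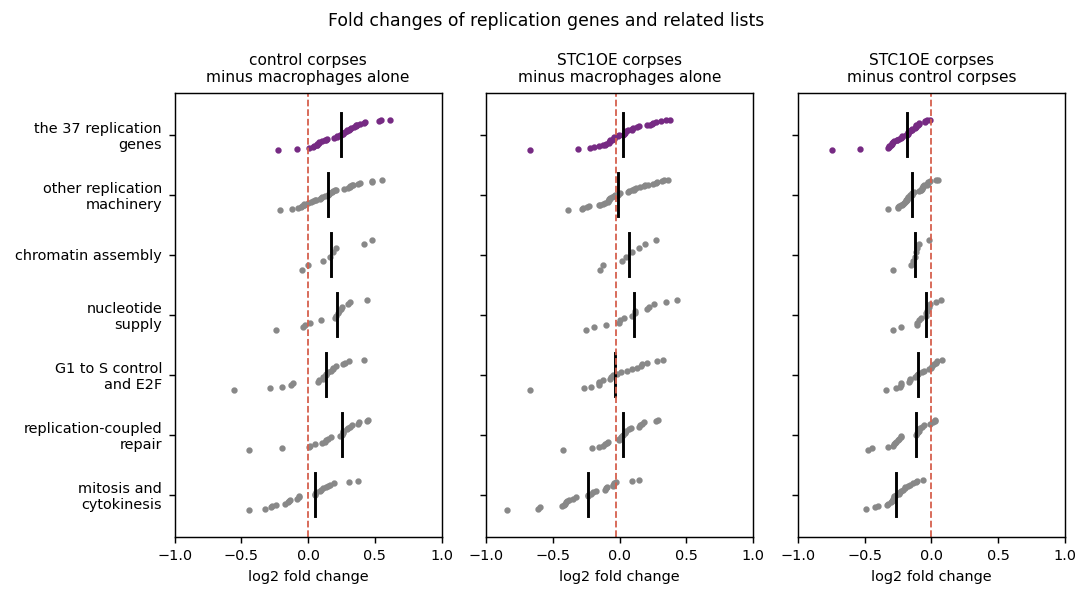
Log2 fold change of every tested gene (points) of the 37 replication genes and of 6 related lists, with the median of each list (black line) and of all genes tested (red dashed line). Against macrophages alone the replication genes lie on both sides of the dashed line with STC1OE corpses (middle panel) and mostly right of it with control corpses (left panel). Between STC1OE and control corpses (right panel) they lie left of 0, and 1 gene of the other replication machinery and 1 of the mitosis list lie beyond the axis in the left and right panels.

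Summed over the 37 members, the level was 1592 to 1738 CPM with STC1OE corpses (median 1662), 1706 to 1912 CPM with control corpses (median 1841) and 1570 to 1650 CPM in macrophages alone (median 1624). Pcna alone made up 467 to 549 CPM of each sum. The 14 licensing and origin firing genes summed to 675 to 749 CPM with STC1OE corpses, 741 to 836 CPM with control corpses and 600 to 647 CPM in macrophages alone. Within each corpse group, replicate 2 had the lowest sum of the 37 members and replicate 1 the highest. Markers of melanocytes, the cell type of the corpses, moved with the groups too. The summed level of 14 melanocyte markers was 16.4 to 18.1 CPM with STC1OE corpses (median 17.1), 20.6 to 26.3 CPM with control corpses (median 24.1) and 6.5 to 7.67 CPM in macrophages alone (median 7.05). Of the 14, 1 was at 0 in all STC1OE libraries, 0 in all control corpse libraries and 3 in all of macrophages alone. Of the defining markers Tyrp1 reached 0.861 to 1.33 CPM with STC1OE corpses, 3.14 to 4.49 CPM with control corpses and 0 to 0.0565 CPM in macrophages alone. The markers did not all move alike: of 10 tested, 1 was higher and 6 lower with STC1OE than with control corpses. Ednrb, an endothelin receptor, had 4.04 to 4.83 CPM with STC1OE corpses, 2.8 to 3.64 CPM with control corpses and 0.587 to 1.05 CPM in macrophages alone. Mcoln3, a lysosomal channel, had 7.5 to 8.54, 6.98 to 8.53 and 4.47 to 5.77 CPM in the same groups, the most of any marker in every library. Because Ednrb and Mcoln3 were not lower with STC1OE corpses, the sum differed less between the corpse groups than Tyrp1 did. Dct, another pigment marker, had 0.561 to 1.07 CPM with STC1OE corpses, 2.78 to 3.48 CPM with control corpses and 0 to 0.0848 CPM in macrophages alone. Within both corpse groups, replicate 2 had the highest melanocyte sum and the lowest replication sum. Neutrophil markers summed to a median of 88.3 CPM with STC1OE corpses, 94.7 CPM with control corpses and 181 CPM in macrophages alone, of which Mmp8, a neutrophil collagenase, was most, with Ly6g at 0 in every library. Progenitor markers summed to 1.43 to 2.45, 2.1 to 2.35 and 3.88 to 4.35 CPM for STC1OE corpses, control corpses and macrophages alone, and macrophage markers to medians of 14480, 14620 and 16910 CPM. The part of corpse RNA and of other cells in the replication results was not tested.

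**Figure D5:**
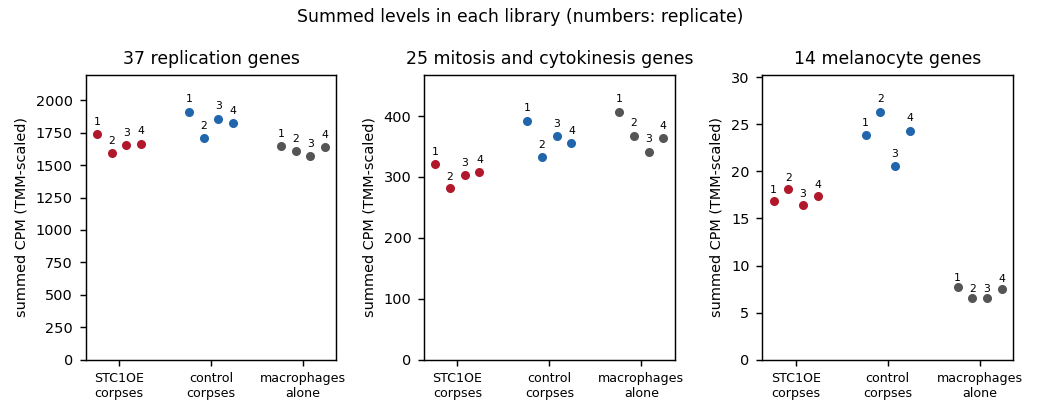
Summed CPM in each library (points, numbered by replicate; linear axes from 0) of the 37 replication genes, 25 mitosis and cytokinesis genes and 14 melanocyte genes, for STC1OE corpses, control corpses and macrophages alone. The replication sum is highest with control corpses, with medians of 1662, 1841 and 1624 CPM. The mitosis sum is lowest with STC1OE corpses, with medians of 306, 361 and 366 CPM, and the melanocyte sum is lowest in macrophages alone, with medians of 17.1, 24.1 and 7.05 CPM.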

How the data were processed

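The authors deposited raw counts of reads per gene for 12 libraries of bulk RNA-seq, with 55604 genes in each. HISAT2, HTSeq and DESeq2 are named in the submitters' processing notes, as are mm10 and GRCm38, with no versions. Per the labels, Illumina TruSeq libraries were read as pairs on a NovaSeq. The annotation release and the use of strand are not given in these sources, and reads of antisense partners cannot be separated. Lines for reads without a gene stayed out of library sizes. Of all deposited counts, 10.55% to 14.69% had no feature, 5.53% to 6.62% were ambiguous, 5.17% to 5.85% were of low quality, 10.81% to 17.77% were unaligned and 5.74% to 7.03% aligned more than once. The unaligned share was 14.4% to 17.77% with STC1OE corpses, 10.81% to 11.54% with control corpses and 11.38% to 14.01% in macrophages alone. The corpse groups thus did not overlap in it, and its part in the results was not tested.

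Groups and replicate numbers came from the sample titles. Identifiers were matched without version, which gave 54723 genes a symbol and left 881 without. Exon lengths and overlaps came from GENCODE M21 (GRCm38), which need not be the authors' release, and promoters from RefSeq (GRCm38.p6). In R 4.3.3, edgeR 4.0.16 kept genes by filterByExpr (minimum count 10, minimum total 15), scaled by TMM, and fitted all 12 libraries with robust quasi-likelihood. Tests were two-sided, with p adjusted by Benjamini-Hochberg over 16406 genes and a threshold of 0.05. SE is the log2 fold change divided by the root of its F statistic. Heat map values use a prior count of 2. The steps were tested on simulated data. Alternatives were RLE and upper quartile factors, no low-count filter, a replicate block, only the groups compared, DESeq2 1.42.0, a test against 1.2-fold, each library left out, and replicates 1 and 2 or 3 and 4 alone.

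The 37 members and all lists, marker lists included, were chosen with earlier results of these data known. All members are named. Of each other list up to 3 genes per direction and comparison could be named, those with the smallest p and a mean of at least 2 CPM. The motif of the cell cycle genes homology region and the splits by E2F letters and exon overlap were added after values were seen.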

Additional observations from a re-analysis of the deposited data

Results flagged for a closer look

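In each group of 4, every member and the total was checked for 1 library far from the other 3, by its gap to the nearest over the range of the group. Of 114 such sets 8 had one, and chance alone gives about 1 in 20. With STC1OE corpses, Orc1 was low in replicate 4 at 5.32 CPM, with the other 3 at 6.2 to 6.36 CPM. Pole was high in replicate 1 at 22.8 CPM, with the others at 20.03 to 20.4 CPM. Rfc5 was high in replicate 1 at 23.8 CPM, with the others at 21.8 to 22.1 CPM. With control corpses, Mcm3 was low in replicate 2 at 100.1 CPM, with the others at 110.3 to 112 CPM. In macrophages alone, Orc1 was high in replicate 4 at 7.69 CPM, with the others at 6.26 to 6.46 CPM. Pcna was high in replicate 4 at 549 CPM, with the others at 519.8 to 524 CPM. Pola1 was high in replicate 1 at 32.7 CPM, with the others at 25.1 to 26.3 CPM. Rrm2 was low in replicate 3 at 24.9 CPM, with the others at 27.2 to 27.4 CPM. The edgeR call of Orc1 between STC1OE and control corpses was lost without replicate 4 of the STC1OE group (adjusted p = 0.169), as it was without any 1 of 4 other libraries. That of Pcna with control corpses against macrophages alone was lost without replicate 4 of macrophages alone (adjusted p = 0.13), as it was without either of 2 other libraries.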

How the results depend on the processing

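No named member that was called changed sign under an alternative. With RLE factors, upper quartile factors, no low-count filter and only the groups compared, the counts of members stayed within 1.5 times those reported, with 22 to 25 lower between STC1OE and control corpses. DESeq2 did too, except that it called 0 members lower with control corpses against macrophages alone (Pcna, adjusted p = 0.0597). Tested against 1.2-fold, 1 member was higher and 1 lower with STC1OE corpses and 7 and 0 with control corpses against macrophages alone, and 0 lower between STC1OE and control corpses. All genes called then numbered 2119, 1687 and 4. With replicates 1 and 2 alone, 4 members were higher and 1 lower with STC1OE corpses, 0 were lower with control corpses, and 0 were lower between STC1OE and control corpses, with 4650, 4090 and 33 genes called. With replicates 3 and 4 alone, 5 members were lower with STC1OE corpses against macrophages alone, and 1925 genes were called between STC1OE and control corpses. The cause was not tested, and these fits hold fewer libraries. With 1 library left out, 9 to 12 members were higher and 3 lower with STC1OE corpses against macrophages alone (6646 to 7017 genes called). With control corpses 19 to 25 were higher and 0 to 1 lower (6016 to 6360), and between STC1OE and control corpses 0 were higher and 14 to 24 lower (474 to 1200). Calls held whichever library was left out for 12 of 14 members with STC1OE corpses, 19 of 24 with control corpses and 13 of 23 between STC1OE and control corpses. Deviations of same-numbered libraries correlated at −0.043 to 0.091 over 12 pairs, and those of unlike numbers at −0.091 to 0.096 over 36 pairs. Such correlations cannot tell whether same-numbered libraries shared mice or experiments, since counting noise also enters the deviations. With a replicate block, 11 members were higher and 4 lower with STC1OE corpses, 24 and 1 with control corpses, and 0 and 24 between STC1OE and control corpses, with 7300, 6712 and 1089 genes called. Of all calls between STC1OE and control corpses, 61.1% were higher with TMM, 68.2% with RLE factors, 53.1% with upper quartile factors and 70.5% with DESeq2. Depth limits Fen1, with 228 counts in all.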

Other observations

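Genes of the mitosis list held other promoter letters than the replication genes. The 6-base letters of the cell cycle genes homology region (TTTGAA, both strands, searched after values were seen) stood in 3 of 31 replication promoters (9.68%), 16 of 21 mitosis promoters (76.2%) and 20.2% of all genes in the table. The E2F letters stood in 1 of 21 mitosis promoters (4.76%), and the CCAAT box in 17 (81.0%). Cenpf, a kinetochore protein of that list, averaged 5.67 CPM with STC1OE corpses, 7.48 CPM with control corpses and 10.2 CPM in macrophages alone. Its edgeR adjusted p was 3.27e-10 with STC1OE and 2.27e-05 with control corpses against macrophages alone, and 0.00278 between STC1OE and control corpses. Cdk1, the mitotic kinase, averaged 20.5 CPM with control corpses and 16.6 CPM in macrophages alone (edgeR adjusted p = 9.14e-05). Of the G1 to S list, Tfdp2, a partner of E2F factors, averaged 8.19 CPM with STC1OE corpses, 8.91 CPM with control corpses and 13.1 CPM in macrophages alone. Cdc25a, the phosphatase that activates Cdk2, averaged 30.3, 32.4 and 24.2 CPM in the same 3 groups. Samhd1, which degrades deoxynucleotides, averaged 232, 234 and 277 CPM in them, lower than in macrophages alone with STC1OE corpses (edgeR adjusted p = 1.32e-08) and with control corpses (2.93e-08).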
